A study of Drosophila melanogaster with 31 samples.

Results

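Gypsy1 and Gypsy2 are 2 of the 129 transposable element entries in the count tables of a study in ovarian somatic cells (OSC), a follicle cell line of *Drosophila melanogaster* kept in culture. They were taken by their exact, mixed-case names from all 5 tables: RNA sequencing, CLIP of Nxf2 with and without ultraviolet (UV) light, CLIP of Nxf2 after knockdown, Piwi CLIP, and small RNA bound to Piwi. The tables give each entry a name and a length and nothing else. Gypsy1 is 7135 bases long and Gypsy2 is 6883 bases long. A separate entry spelled GYPSY2, 6488 bases long, differs from Gypsy2 in name only by case and is described beside it where the names could be confused. The pair was chosen by name with its measured RNA, CLIP and small RNA values in every table known, so all ratios below describe these libraries and none is a test.

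Gypsy-type elements are retrotransposons with long terminal repeats that copy themselves through an RNA. In follicle cells, Piwi carries small guide RNAs (piRNAs) into the nucleus, where pairing with the nascent RNA of an element leads to repressive chromatin at its copies. Panx and the export factor variant Nxf2 act together downstream of Piwi in that silencing. Loss of any of the 3 proteins is known to release the RNA of many elements of this class, and the piRNAs of follicle cells come largely from clusters filled with antisense fragments of gypsy-type elements.

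The OSC were grown at 26 degrees C and were transfected with siRNA where a knockdown (KD) is named. Poly(A)+ RNA was sequenced from cells with KD of EGFP, which served as the control (2 samples), of Nxf2 (2), of Panx (2) or of Piwi (1). CLIP, in which protein and RNA are crosslinked and immunoprecipitated (IP), was done with an antibody against the myc tag in a stable line expressing myc-Nxf2. One experiment compared cells with and without UV crosslinking (2 IP samples and 1 size-matched input, SMInput, each). Another compared EGFP-KD with Piwi-KD cells of that line (2 IP and 2 SMInput samples each), in which endogenous Nxf2 was knocked down too per the labels, controls included. Piwi CLIP (2 IP samples, 1 SMInput) and Piwi-bound small RNA (1 sample) came from OSC with no knockdown listed. Each condition has 1 value per entry in the tables, so no difference has a replicate check. The genes for Nxf2, Panx and Piwi and the marker genes of follicle or germ cells are not among the entries, and neither the depletion nor the cell type was analysed here.

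Library totals ran from 8968998 to 9852335 reads in RNA sequencing and from 426679 to 2746550 reads in CLIP, with 3187937 reads of small RNA. Element entries took 5.68% of the RNA reads in EGFP-KD cells and 16.4% after Piwi-KD. They took 0.102% of the no-UV SMInput and 1.07% of the UV SMInput. Intervals are exact 95% counting intervals. PCR reads are not independent molecules, so the intervals cover counting error only. A ratio compares reads per library total, and an entry is called higher at a ratio of at least 2 with its interval above 1 and lower at the inverse. Calls were made over the entries with a mean of at least 1 RPKM (reads scaled to entry length and library total) in RNA or 1 RPM (reads scaled to library total) in CLIP. The mean was taken over all libraries of an experiment, knockdowns included.

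Gypsy1 RNA was abundant in control cells and had nearly the same RPKM in all 3 knockdowns. It measured 1428 RPKM in EGFP-KD cells (interval 1419 to 1437), 1379 after Nxf2-KD, 1451 after Panx-KD and 1366 after Piwi-KD. The Panx-KD library was thus the highest and the Piwi-KD library the lowest. The ratio to EGFP-KD was 0.966 after Nxf2-KD (0.957 to 0.975), 1.02 after Panx-KD (1.01 to 1.03) and 0.957 after Piwi-KD (0.948 to 0.966). The direction of these small departures depends on the scaling. With library totals that leave out the element reads, the Nxf2-KD ratio turned to 1.01 and the Piwi-KD ratio to 1.08, while centred on the median of the tested entries, which itself rose, Gypsy1 was lower in all 3 knockdowns, at 0.694 after Nxf2-KD, 0.673 after Panx-KD and 0.636 after Piwi-KD.

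Gypsy2 RNA was scarce in control cells and higher in every knockdown. It measured 2.18 RPKM in EGFP-KD cells (148 reads, interval 1.85 to 2.56), 9.30 after Nxf2-KD (582 reads), 7.45 after Panx-KD (468 reads) and 22.9 after Piwi-KD (1413 reads). The Piwi-KD library was the highest and the EGFP-KD library the lowest. The ratio to EGFP-KD was 4.26 after Nxf2-KD (3.55 to 5.14), 3.41 after Panx-KD (2.83 to 4.13) and 10.5 after Piwi-KD (8.85 to 12.5). All 3 were called higher, as were 33.8% of the 65 tested entries after Nxf2-KD, 33.8% after Panx-KD and 43.1% after Piwi-KD, where 3.08% were called lower. On the log2(value + 10) scale, which understates low entries, the ratios after Nxf2-KD and Panx-KD were 1.58 and 1.43 and missed the threshold, and the Piwi-KD ratio was 2.70. Centred on the median, the ratios after Panx-KD and Piwi-KD were 2.26 and 6.97. The 3 ratios share the EGFP-KD library and are given side by side for that reason. In these bulk samples, more cells with the RNA and more RNA per cell cannot be told apart.

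**Figure D1:**
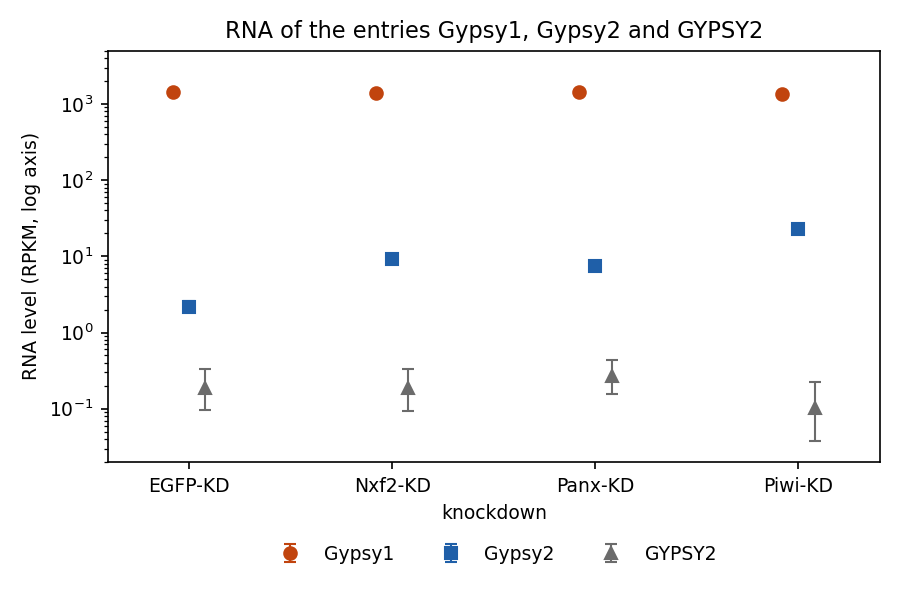
RNA level in RPKM (log axis) of Gypsy1, Gypsy2 and GYPSY2 in the 4 knockdowns, 1 value per condition, with exact 95% counting intervals that are narrower than the symbol for Gypsy1. Gypsy1 lies between 1366 and 1451 RPKM throughout, and Gypsy2 goes from 2.18 RPKM in EGFP-KD cells to 22.9 after Piwi-KD.

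The difference between both entries is large against counting error. The Gypsy2 ratio was 4.41 times the Gypsy1 ratio after Nxf2-KD (3.68 to 5.32), 3.36 times after Panx-KD (2.79 to 4.07) and 11.0 times after Piwi-KD (9.24 to 13.1). Library totals and median centring cancel in these values, since both entries were read in the same libraries, but with a pseudocount of 10 RPKM they were 1.64, 1.41 and 2.82. Gypsy2 was not equally high after the 3 knockdowns. Piwi-KD cells had 2.46 times the Gypsy2 RNA of Nxf2-KD cells (2.23 to 2.72) and 3.07 times that of Panx-KD cells (2.77 to 3.42), where 21.5% of the tested entries were called higher in either comparison. Between Nxf2-KD and Panx-KD cells the Gypsy2 ratio was 1.25 (1.10 to 1.41), the highest of the 65 tested entries, whose median was 0.967, but under the threshold of 2. Gypsy1 had ratios of 0.991, 0.942 and 0.951 in these 3 comparisons, in the same order.

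The upper-case entry GYPSY2 did not follow Gypsy2. It had 12 RNA reads in EGFP-KD cells, 11 after Nxf2-KD, 16 after Panx-KD and 6 after Piwi-KD, a mean of 0.187 RPKM, and was below the level needed to be tested. Its Piwi-KD ratio of 0.549 had an interval of 0.169 to 1.58. The entries are therefore distinct in these tables, and a search that ignores case would merge them.

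Among the other 14 gypsy-named entries, only 5 reached the level to be tested in RNA. Of these 5, GYPSY and GYPSY5 were called higher in all 3 knockdowns, with Piwi-KD ratios of 48.2 and 514, and GYPSY6A was called lower after Piwi-KD (0.330, from 20 to 6 reads). The GYPSY5 ratio of 514 (271 to 1126) rests on 9 reads in EGFP-KD cells, at 0.132 RPKM. GYPSY5 was tested only because of its knockdown levels, so its calls are partly fixed by the filter. The median ratio of the 5 was 1.02 after Nxf2-KD, 0.986 after Panx-KD and 0.959 after Piwi-KD, beside 1.39, 1.511 and 1.505 over all tested entries. The 3 medians of the 5 are the ratios of a single entry, GYPSY12. At 93.98 RPKM it was the next most abundant gypsy-named entry after Gypsy1 in EGFP-KD cells. In a list of 17 LTR elements known from somatic cells of the ovary, which holds neither Gypsy1 nor Gypsy2, 10 of 14 tested entries were called higher after Nxf2-KD, 11 after Panx-KD and 13 after Piwi-KD, with median ratios of 5.98, 7.05 and 36.0, beside 22, 22 and 28 of all 65 tested entries. In a list of 14 elements known mainly from the germline, 3 of 11 tested were called higher after Nxf2-KD, 3 after Panx-KD and 5 after Piwi-KD, where 1 was lower, shares near those of all tested entries (33.8%, 33.8% and 43.1%). The Gypsy2 ratios lie below the medians of the somatic list in all 3 knockdowns, and Gypsy1 lies below every tested member of it. That list holds GYPSY5 and also GTWIN, at 0.631 RPKM in EGFP-KD cells, both tested only because of their knockdown levels. The mean that admits an entry includes the knockdown libraries, so the counts and medians of the list are partly fixed by that filter.

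Gypsy1 was among the most abundant entries in every RNA and CLIP library. Per length it was second only to COPIA, a copia-type retrotransposon, in 13 of these 14 libraries, and in the Piwi-KD IP of Nxf2 BLOOD also exceeded it. It supplied 17.9% of all element reads in EGFP-KD RNA (Wilson interval 17.8 to 18.1%), and 5.94% in Piwi-KD RNA, where its own level had hardly moved and other entries had risen. Gypsy2 ranked 47 of 129 per length in EGFP-KD RNA and 33 in Piwi-KD RNA.

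Small RNA bound to Piwi showed the opposite order. Gypsy2 had 1764 RPM per kb (38708 reads, interval 1747 to 1782), rank 14 of 129, and supplied 3.22% of the element small RNA. Gypsy1 had 377 RPM per kb (8581 reads, 369 to 385), rank 37, and supplied 0.714%. GYPSY2 lay between them at 685 RPM per kb (14178 reads), rank 30. Set against RNA in EGFP-KD cells, small RNA RPM per kb were 808 times the RPKM for Gypsy2 and 0.264 times for Gypsy1. Over the 64 tested entries with control RNA reads the median of this quotient was 14.7, with Gypsy2 at rank 6 from the top and Gypsy1 at rank 54. Among these were GYPSY5, DM412B and GTWIN, at 0.132, 0.533 and 0.631 RPKM in EGFP-KD cells, which were tested only because of their knockdown levels. ROVER, at 0.236 RPKM, was not tested, so these ranks and the median depend partly on that filter. Small RNA and RNA come from different libraries, so the quotient only orders entries.

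Entries next to Gypsy2 in the order of small RNA per length were DOC and I above it and DM412B and GYPSY5 below it. Their Piwi-KD ratios were 3.20 for DOC, 8.28 for I, 52.0 for DM412B and 514 for GYPSY5 (271 to 1126), and the Gypsy2 value of 10.5 lies among them. DM412B and GYPSY5 had 0.533 and 0.132 RPKM in EGFP-KD cells and were tested only because of their knockdown levels. Of the 11 other tested entries with at least as much small RNA per length as Gypsy2, 10 were called higher after Piwi-KD, the exception being GYPSY4 (0.698), with 8 called after Nxf2-KD and 8 after Panx-KD. Gypsy1 stood at a lower step of that order. Of the 26 other tested entries with at least as much small RNA per length as Gypsy1, 22 were called higher after Piwi-KD, and of the 38 with less, 6 were called higher. After Nxf2-KD these counts were 16 of 26 and 6 of 38, and after Panx-KD 18 of 26 and 4 of 38. The 4 at or above the Gypsy1 level and not called higher after Piwi-KD were GYPSY4, GYPSY6A, HMSBEAGLE and ZAM. This division by the level of the members was made after the values were seen. The mean that admits an entry includes the knockdown libraries, so an entry below 1 RPKM in control cells was counted only if it rose. The counts are therefore partly fixed by that filter. Untested entries with more small RNA per length than Gypsy1 included ROVER, with a Piwi-KD ratio of 7.43, and GYPSY10, with 0.824. The GYPSY10 ratio rests on 6 reads against 8, with an interval of 0.236 to 2.71, and fixes no direction. The tested entry just below Gypsy1 was IVK, with 283 RPM per kb and a Piwi-KD ratio of 3.48.

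**Figure D2:**
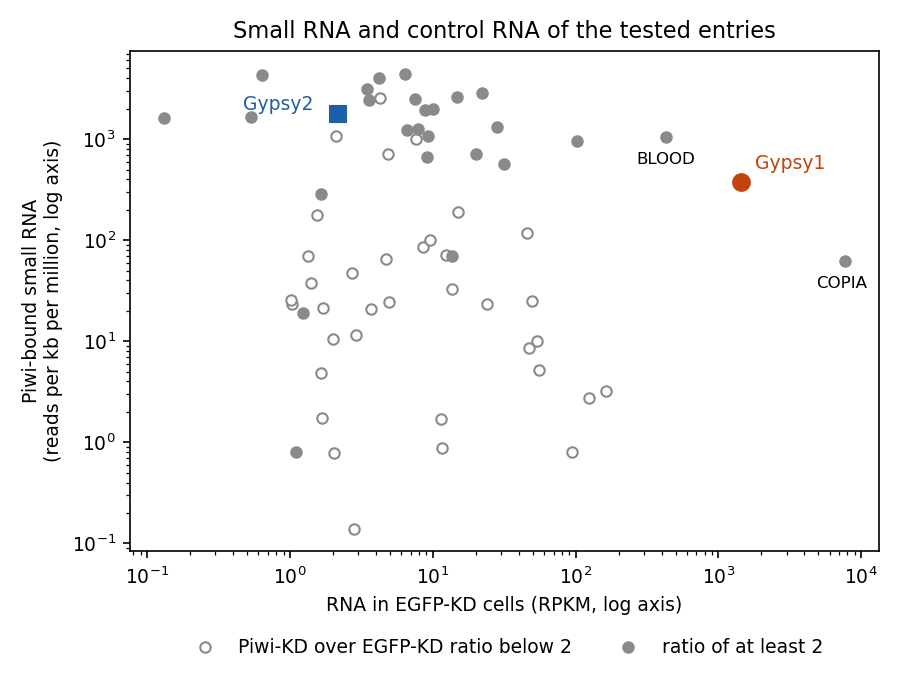
Piwi-bound small RNA (RPM per kb) against RNA in EGFP-KD cells (RPKM) for 64 tested entries, both axes logarithmic, 1 point per entry, filled where the Piwi-KD over EGFP-KD ratio of RNA was at least 2. Gypsy2 sits at the upper left with 2.18 RPKM and 1764 small RNA RPM per kb, and Gypsy1 at the right with 1428 RPKM and 377.

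Nxf2 CLIP after crosslinking recovered Gypsy2 at a low level and Gypsy1 at a high one. Gypsy1 had 1122 RPM in the UV SMInput (3082 reads) and 1548 RPM in the UV IP (1917 reads), a ratio of 1.38 (1.30 to 1.46). Gypsy2 had 4.37 RPM in the UV SMInput (12 reads) and 10.5 RPM in the UV IP (13 reads), a ratio of 2.40 (1.01 to 5.76). Gypsy2 was called enriched with an interval that only just excludes 1, and Gypsy1 was not, while 34.9% of 63 tested entries were and 3.17% were called lower. The median ratio of those entries was 1.89, and centred on it the Gypsy1 ratio turned to 0.729 and Gypsy2, at 1.27, was no longer called. The Gypsy2 ratio was 1.74 times the Gypsy1 ratio, with an interval of 0.731 to 4.19, so a difference in enrichment was not detectable at this depth.

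Without UV, Gypsy1 was in both libraries and Gypsy2 hardly in either. Gypsy1 had 305 RPM in the no-UV SMInput (509 reads) and 715 RPM in the no-UV IP (305 reads), a ratio of 2.34 (2.02 to 2.70), called higher along with 15.9% of the 63 tested entries, or 10 of the 34 that had a ratio, though it turned to 0.617 when centred on their median. Gypsy2 had 2 reads in the SMInput and 0 in the IP, which allows up to 7.03 RPM at a floor of 3 counts, and no ratio was formed. Crosslinking went with higher Gypsy1 levels on both sides. The UV IP held 2.17 times the Gypsy1 of the no-UV IP (1.92 to 2.45) and the UV SMInput 3.67 times that of the no-UV SMInput (3.34 to 4.04), where 33.3% and 41.3% of tested entries were called higher, and 1.59% lower between the inputs. Centred on the median these ratios were 1.33 and 1.21 and no longer called. The share of element reads in the inputs moved the same way, from 0.102% to 1.07%, and its part in these ratios was not tested. Relative to input, the UV over no-UV effect on Gypsy1 was thus 0.589 (0.505 to 0.689), and moved to 0.973 when centred, beside a median of 0.606 over the 31 entries with reads in all 4 libraries, of which 2 were called higher and 4 lower (3.17% and 6.35% of the 63 tested entries). For Gypsy2 the UV IP was 1.49 times the no-UV IP, with the 0 reads of the latter set to the floor of 3 counts. The interval of that ratio runs from 1.05 upward with no upper limit. The SMInput ratio of Gypsy2, 3.64, had an interval of 0.811 to 33.5.

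After EGFP-KD, IP of myc-Nxf2 recovered Gypsy2 far above its input. Gypsy2 had 1 read in the SMInput (0.410 RPM) and 23 reads in the IP (21.2 RPM, interval 13.5 to 31.9), a ratio of 51.8 with an interval of 8.41 to 2134. The width of that interval comes from the single input read, and the ratio was 18.4 centred on the median, 15.8 with a pseudocount of 1 RPM and 3.001 with 10 RPM. Gypsy1 had 2812 RPM in the SMInput (6857 reads) and 3657 RPM in the IP (3959 reads), a ratio of 1.30 (1.25 to 1.35). Of 78 tested entries 50% were called enriched and 3.85% lower, Gypsy2 among the enriched and Gypsy1 in neither group. The median ratio was 2.82, and centred on it the Gypsy1 ratio turned to 0.462 (0.444 to 0.480), which meets the rule for a lower call. The Gypsy2 ratio was 39.8 times the Gypsy1 ratio (6.46 to 1641), or 12.1 and 2.31 with these pseudocounts. In the UV experiment, for which no knockdown is listed, the Gypsy2 input held 12 reads and the ratio was 2.40. The tables were normalised apart, so these values stand side by side with no comparison.

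Gypsy2 was higher after Piwi-KD in both the input and the IP of Nxf2. The SMInput went from 1 to 50 reads (22.3 RPM, interval 16.6 to 29.5), a ratio of 54.5 (9.34 to 2194) that was 16.6 with a pseudocount of 1 RPM and 3.11 with 10 RPM, where 23.1% of tested entries were called higher. The IP went from 23 to 156 reads (141 RPM, 119 to 164), a ratio of 6.62 (4.25 to 10.7), where 8.97% were called higher and 17.9% lower. That IP ratio was the second highest of the 78 tested entries, after MDG1 at 18.9. Gypsy1 moved little, with ratios of 1.24 (1.20 to 1.28) in the SMInput, which turned to 0.901 under median centring, and 1.08 (1.03 to 1.13) in the IP.

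Gypsy2 was also enriched over its input after Piwi-KD. The ratio of IP to SMInput was 6.29 (4.55 to 8.83), or 3.31 centred on the median, the fourth highest of the 77 tested entries with a ratio, where 33.3% were called enriched, 3.85% were called lower and the median was 1.90. For Gypsy1 the ratio was 1.13 (1.09 to 1.17), which turned to 0.595 when centred on that median. Gypsy2 thus stayed 5.56 times as enriched as Gypsy1 (4.01 to 7.82). The Piwi-KD effect, the quotient of IP over SMInput in Piwi-KD and in EGFP-KD cells, was 0.121 for Gypsy2 with an interval of 0.00289 to 0.792. It was called lower along with 29.5% of the tested entries, where 2.56% were called higher, and rests on the single EGFP-KD input read. Centred on the median it was 0.231 (0.0055 to 1.51) and no longer called, and with a pseudocount of 1 RPM it was 0.384 and with 10 RPM it turned to 1.55. For Gypsy1 the effect was 0.871 (0.825 to 0.919), above the median of 0.525 over the entries, and it turned to 1.66 when centred on that median.

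**Figure D3:**
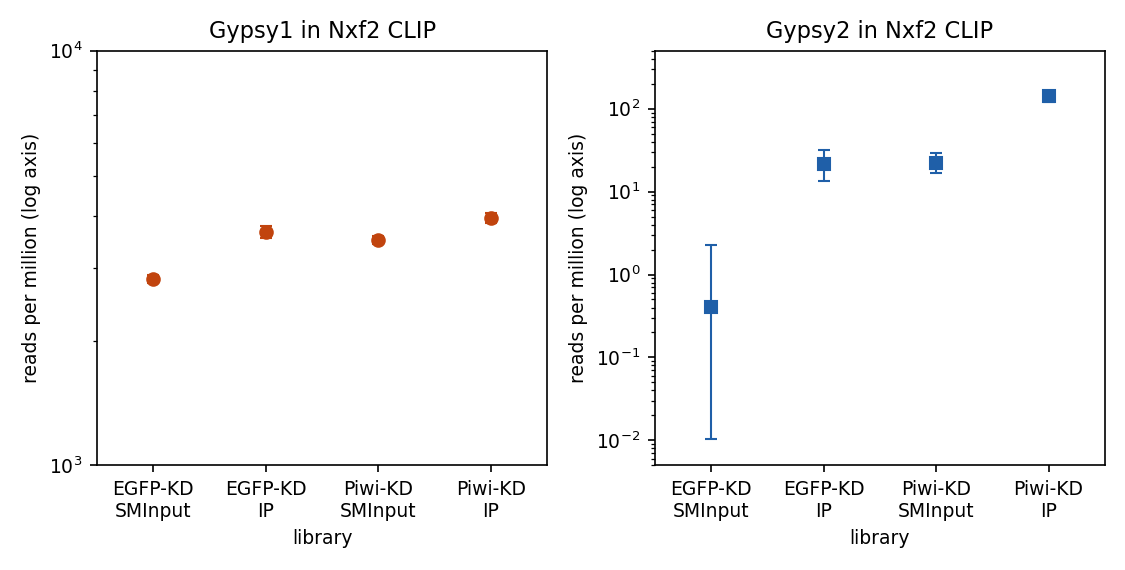
Gypsy1 (left) and Gypsy2 (right) in the SMInput and IP of Nxf2 CLIP from EGFP-KD and Piwi-KD cells, in RPM on log axes of different range, 1 value per condition with exact 95% counting intervals. Gypsy1 lies between 2812 and 3952 RPM, and Gypsy2 goes from 0.410 RPM in the EGFP-KD SMInput to 141 RPM in the Piwi-KD IP.

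Piwi CLIP recovered both entries above input. Gypsy1 had 9650 RPM in the SMInput (4212 reads) and 19492 RPM in the IP (13980 reads), a ratio of 2.02 (1.95 to 2.09). Gypsy2 had 11.5 RPM in the SMInput (5 reads) and 41.8 RPM in the IP (30 reads), a ratio of 3.65 (1.403 to 12.1). Both were called enriched, as were 57.1% of the 98 tested entries, whose median ratio of 3.04 lies between them, and 3.06% were called lower. Centred on the median, the Gypsy1 ratio turned to 0.664 and Gypsy2, at 1.20, was no longer called. The Gypsy2 ratio was 1.81 times the Gypsy1 ratio with an interval of 0.694 to 5.97, so a difference was not detectable at this depth. GYPSY2 had 10 reads in the IP and 0 in the SMInput, a ratio of 2.03 against the floor of 3 counts per library, with an interval from 1.36 upward.

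As a share of element reads, Gypsy1 was smaller in the IP than in the SMInput in 4 of the 5 pairs. It took 34.5% of the element reads in the Piwi SMInput (Wilson interval 33.7 to 35.3%) and 12.9% in the Piwi IP (12.7 to 13.1%). In EGFP-KD cells it took 32.2% of the SMInput and 16.4% of the Nxf2 IP, and after Piwi-KD 24.0% and 14.2%. Without UV the shares were 29.98% and 20.2%. The exception was the UV pair, with 10.5% of the SMInput (10.2 to 10.9%) and 12.7% of the IP (12.1 to 13.2%).

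**Figure D4:**
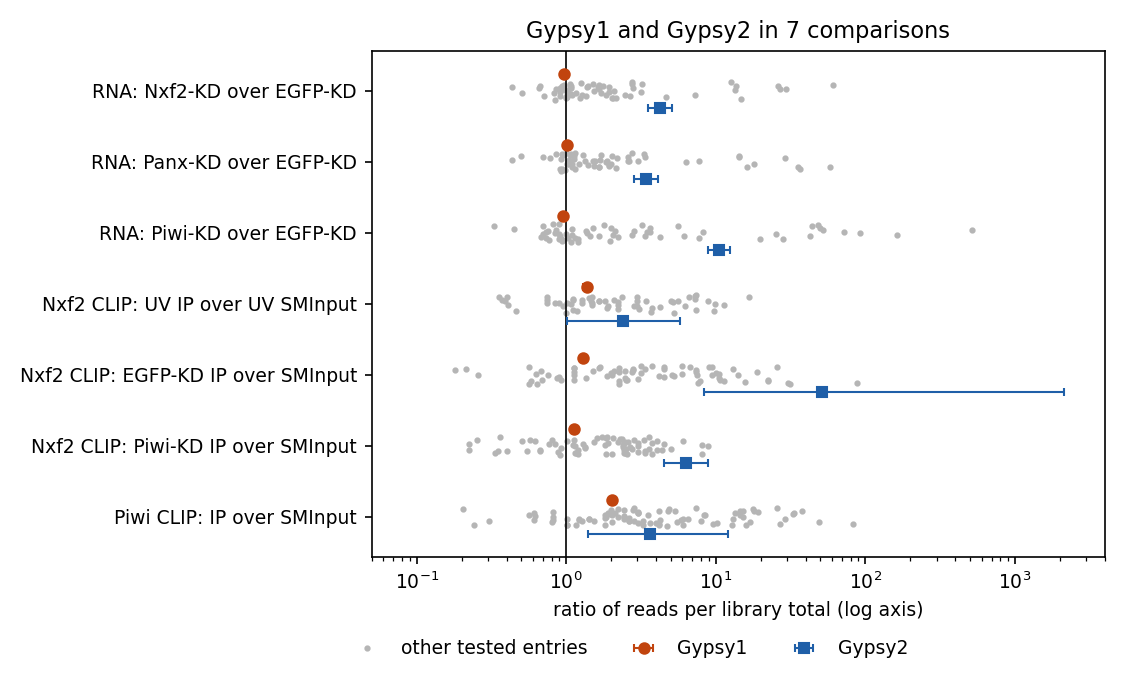
Ratio of reads per library total (log axis) of Gypsy1 and Gypsy2 in 7 comparisons, with exact 95% counting intervals, over the other tested entries as grey points. Gypsy1 lies between 0.957 and 1.02 in the 3 RNA comparisons and between 1.13 and 2.02 in CLIP, and Gypsy2 lies to its right in all 7.

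Likeness over these 7 comparisons was measured as the root mean square difference of log2 ratios with a pseudocount of 1, among 64 entries. The entry nearest to Gypsy1 was TART, a telomeric non-LTR retrotransposon, at 0.41, followed by PROTOP, a DNA transposon, at 0.53, QUASIMODO2 at 0.58, COPIA2 at 0.59 and POGO, a DNA transposon, at 0.59. QUASIMODO2 and COPIA2 were below the tested level in the UV experiment, and COPIA2 also in Nxf2 CLIP after knockdown. COPIA2 had 0 reads in both Piwi-KD CLIP libraries, where the pseudocount alone set its log2 ratio to 0. PROTOP and POGO were also scarce in Nxf2 CLIP, at 0.619 and 0.871 RPM per kb in the EGFP-KD IP beside 513 for Gypsy1. The pseudocount therefore pulled their log2 ratios toward 0 there. The entry nearest to Gypsy2 was MDG3, an LTR retrotransposon, at 0.998, followed by BLOOD at 1.17, Copia1 at 1.20, FW at 1.25 and ROO at 1.28. Gypsy1 and Gypsy2 themselves differed by 2.19, and Gypsy2 stood at place 48 in the order from Gypsy1. The order depends on the measure: with a pseudocount of 10, 2 of the 5 nearest entries remained for each, and by Pearson correlation 0 of 5.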

How the data were processed

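Per the file headers, the authors deposited raw read counts per element entry, RPKM for RNA and RPM for CLIP and small RNA, with 1 column per condition. Whether columns pool replicates is not stated. The Nxf2-KD header names no unit, but its values follow from counts, lengths and 1 total as RPKM. The EGFP-KD IP header names no protein, and its sample labels name Nxf2. Tools in the submitters' processing notes, given with no role, include TopHat2 2.0.14, Bowtie2 2.2.9, STAR, cutadapt and Bowtie. How reads that match several entries were assigned is not given in the sources used here, so related entries may share reads.

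Each count divided by its normalised value, and for RPKM also by entry length, gave the library total, taken as the median over entries. Ratios have exact conditional binomial (Clopper-Pearson) intervals, quotients of ratios exact conditional odds ratio intervals. Against 0 reads a floor of 3 counts was used, and no ratio was formed where 1 side was 0 and the other at most 3. Quotients of ratios used no floor and were not formed where any count was 0. Levels have exact Poisson intervals and shares Wilson intervals. Samples were grouped by title. No model across replicates was possible with 1 column per condition. The calculation was tested on simulated data with Python 3.11.15 and scipy 1.17.1.

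The members, lists and tests were chosen with earlier results of these data known. Named were the members, GYPSY2, the gypsy-named entries with the highest and lowest ratios, and the 5 nearest entries. Others (GYPSY12, GYPSY10, GTWIN, ROVER, the neighbours in small RNA order, the exceptions, COPIA, BLOOD and MDG1) were chosen after their values were seen. Alternatives were other totals, median centring, pseudocounts of 1 and 10 and other filters. H3K9me3 peaks were not used here.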

Additional observations from a re-analysis of the deposited data

How the results depend on the processing

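No paired analysis was possible because the tables hold 1 column per condition, and leaving out a replicate was not possible for the same reason. Over 17 comparisons and 4 alternatives, Gypsy1 kept direction and call in 54 of 68 values and Gypsy2 in 48 of 60. The cause was not tested for any change below, other than by the construction of the alternative.

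Library totals without element reads turned the Gypsy1 RNA ratios to 1.01 (Nxf2-KD over EGFP-KD), 1.08 (Piwi-KD over EGFP-KD), 1.07 (Piwi-KD over Nxf2-KD) and 1.01 (Piwi-KD over Panx-KD). They changed no call of Gypsy2.

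Median centring turned Gypsy1 to 0.673 (Panx-KD RNA), 0.729 (UV IP over SMInput), 0.617 (no-UV IP over SMInput), 0.462 (EGFP-KD IP over SMInput), 0.595 (Piwi-KD IP over SMInput), 0.901 (Piwi-KD over EGFP-KD SMInput), 0.664 (Piwi CLIP) and 1.66 (Piwi-KD effect). It ended the Gypsy1 calls in UV IP over no-UV IP (1.33) and between these inputs (1.21). In EGFP-KD IP over SMInput it gave a lower call for Gypsy1 (0.444 to 0.480). Centring ended the Gypsy2 calls in UV IP over SMInput (1.27), Piwi CLIP (1.20) and the Piwi-KD effect (0.231). The Gypsy2 ratio of UV IP over no-UV IP, set against the floor, went to 0.914 with an interval from 0.643 upward, which fixes no direction.

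A pseudocount of 10 took Gypsy2 below the threshold in RNA at 1.58 (Nxf2-KD), 1.43 (Panx-KD), 1.70 (Piwi-KD over Nxf2-KD) and 1.89 (Piwi-KD over Panx-KD) and in UV IP over SMInput at 1.43, and turned its Piwi-KD effect to 1.55. The Piwi-KD over EGFP-KD ratio of RNA stayed called at 2.70. The Gypsy2 change over the Gypsy1 change then fell to 1.64 (Nxf2-KD), 1.41 (Panx-KD) and 1.72 (Piwi-KD over Nxf2-KD). UV IP over no-UV IP of Gypsy2 passed the threshold at 11.5 with a pseudocount of 1 and 2.05 with 10.

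Entries called higher went under centring from 22 to 13 (Nxf2-KD RNA), 22 to 14 (Panx-KD RNA), 22 to 14 (UV IP over SMInput), 10 to 1 (no-UV IP over SMInput), 26 to 8 (UV over no-UV SMInput), 39 to 23 (EGFP-KD IP over SMInput), 26 to 3 (Piwi-KD IP over SMInput), 18 to 9 (Piwi-KD over EGFP-KD SMInput) and 56 to 24 (Piwi CLIP). With a mean of at least 10 RPM, 12 were called in UV IP over SMInput. Depth limits the Gypsy2 ratios in CLIP: it had 1 read in the EGFP-KD SMInput, 5 in the Piwi SMInput, 2 in the no-UV SMInput and 0 in the no-UV IP.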
